A study of Mus musculus with 17 samples.

Results

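The genes described are 46 named components and targets of the bone morphogenetic protein (BMP), TGF-beta and activin pathways of the mouse. They comprise 13 ligands, 3 latency and matrix proteins, 10 receptors, 8 antagonists, 8 Smads and 4 Id genes, and were chosen by name, not by their values. All 46 were found among the 50600 gene IDs of the count files, and all 46 were among the 21494 genes that passed the filter on low counts. They were measured by bulk RNA sequencing of polyadenylated RNA in 17 libraries from mice, as a model of rhabdoid tumors, childhood cancers defined by loss of the chromatin remodelling subunit Smarcb1. All mice were of the strain C57BL/6J. The 3 Healthy brain libraries were wild type, labelled WT, and the 14 tumor libraries were labelled SMARCB1 -/-. The tumors comprised 3 CNS tumors of the SHH subtype, 4 CNS tumors of the Myc subtype, 4 Extracranial tumors and 3 tumors grafted syngeneically into the flank. Age, treatment, the way in which Smarcb1 was deleted, and whether libraries shared an animal or a parent tumor are not stated in the labels, and p-values therefore cover the spread between these libraries alone, which may be partly technical. The labels do not say whether the grafts came from 1 tumor or from several.

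Ligands of the TGF-beta superfamily bind pairs of type I and type II serine/threonine kinase receptors. TGF-betas and activins act mainly through Smad2 and Smad3, BMPs mainly through Smad1, Smad5 and Smad9, and both branches share Smad4. Smad6 and Smad7 are inhibitory Smads that these signals themselves induce, and the Id genes, which encode inhibitors of basic helix-loop-helix factors, are classical BMP targets. TGF-betas are secreted in a latent form bound to matrix proteins, and BMPs and activins are held in check by secreted antagonists such as noggin, chordin, gremlin and follistatin. In the developing brain BMPs and their antagonists pattern the neural tube and steer neural stem cells between neuronal and glial fates.

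The upstream sequences of 4 of these genes are shown because they are the receptors, the TGF-beta ligand and the Id gene with the smallest p-values over the 5 groups. Each is the 250 bases before the RefSeq start site on GRCm38.p6, 5′ to 3′ on the gene's strand, with capitals for CAGAC or its reverse complement GTCTG, the short site that Smad3 and Smad4 bind, and for GGCGCC, a GC-rich site of BMP-activated Smads that is its own reverse complement. Acvr2a, an activin and BMP type II receptor, lies on the plus strand and its window is chr2:48813859-48814108. Tgfbr2, the TGF-beta type II receptor, lies on the minus strand with its window at chr9:116175364-116175613. Tgfb1, a TGF-beta ligand, has its window at chr7:25686752-25687001 and Id4 at chr13:48260866-48261115, both on the plus strand.
Acvr2a: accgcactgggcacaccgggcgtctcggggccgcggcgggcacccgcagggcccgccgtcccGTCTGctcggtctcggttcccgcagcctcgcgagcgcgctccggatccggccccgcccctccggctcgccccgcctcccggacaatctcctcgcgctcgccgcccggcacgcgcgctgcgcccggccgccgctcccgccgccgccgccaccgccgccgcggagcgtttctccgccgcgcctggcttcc
Tgfbr2: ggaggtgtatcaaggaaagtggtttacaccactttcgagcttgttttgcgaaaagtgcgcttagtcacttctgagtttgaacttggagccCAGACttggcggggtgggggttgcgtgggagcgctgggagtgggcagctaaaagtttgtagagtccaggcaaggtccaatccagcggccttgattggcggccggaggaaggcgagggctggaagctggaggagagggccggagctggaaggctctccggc
Tgfb1: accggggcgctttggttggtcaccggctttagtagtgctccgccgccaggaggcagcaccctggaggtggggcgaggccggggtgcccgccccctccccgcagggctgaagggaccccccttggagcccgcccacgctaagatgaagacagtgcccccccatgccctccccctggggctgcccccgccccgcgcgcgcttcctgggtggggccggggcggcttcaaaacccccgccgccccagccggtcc
Id4: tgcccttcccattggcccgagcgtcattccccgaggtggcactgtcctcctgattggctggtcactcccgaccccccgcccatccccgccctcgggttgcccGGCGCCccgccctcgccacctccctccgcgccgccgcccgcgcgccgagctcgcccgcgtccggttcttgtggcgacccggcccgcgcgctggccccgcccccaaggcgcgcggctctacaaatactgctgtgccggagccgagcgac
The windows of Acvr2a and Tgfbr2 each held 1 CAGAC or GTCTG, that of Id4 held 1 GGCGCC, and that of Tgfb1 held neither. CAGAC on either strand was found in 51.3% of 39 upstream windows of 32 matched genes of the list, against 42.2% of all 32851 windows of this length. GGCGCC was found in 25.6% of the former and in 9.59% of all windows. Such matches describe the letters in these windows and nothing about binding.

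Total counts per library ran from 18685672 to 130835711. Levels are given as CPM, the usual unit of counts scaled to a common library size. Smarcb1 was at 119 to 132 CPM in the brains and at 2.51 to 33.2 CPM in the 14 tumors. Marker lists of other cell types moved with the groups. The 6 macrophage and microglia markers summed to between 41.3 and 62.8 CPM in the brains and between 270.1 and 440.3 CPM in the SHH tumors. The range was 1241–4085 CPM for Myc, 1966–6798 CPM for extracranial and 4582–8133 CPM for graft libraries. All 6 were called higher than in brain in each of these 3 groups, and 4 of the 6 in SHH tumors. The 6 fibroblast and mesenchyme markers summed to 370.4–482 CPM in the SHH, 3991–15849 CPM in the Myc, 5228–10907 CPM in the extracranial and 2133–2457 CPM in the graft libraries. In brain they summed to 656 CPM in library 2, 446 CPM in library 3 and 3925 CPM in Healthy brain 1, which also held pituitary markers at 1368 CPM and skeletal muscle markers at 238 CPM. The 6 neuron markers summed to 4423–5236 CPM in the brains, 375–2931 CPM in the SHH and 37.3–439 CPM in the other 11 tumor libraries. The 6 T and NK cell markers summed to 0.349–0.517 CPM in the brains, 0.566–1.78 in the SHH, 1.98–23.7 in the Myc, 9.01–43.7 in the extracranial and 102–195 in the graft libraries, and all 6 were called higher in each of the last 3 groups. Choroid plexus and ependyma markers summed to 85.8–775 CPM in the brains and 0.780–20.3 CPM in the 11 Myc, extracranial and graft libraries, with 6, 6 and 5 of 6 called lower. Of all these markers, Ttr was at 0 in extracranial tumors. The pituitary markers Prl, Cga and Tshb were at 0 in extracranial tumors and in grafts. SHH CNS tumor 1 stood apart with 9285 CPM of oligodendrocyte markers, against 84.5–107 CPM in the brains. In the brains the oligodendrocyte markers Mog and Mobp were at 0.0476–0.183 and 0.0398–0.222 CPM. The neuron marker Dcx was at 972–1606 CPM there. The age of the brains is not stated, and its part in the folds against brain was not tested. In bulk samples, fewer cells of a type and less RNA per cell cannot be told apart, and the part of other cell types in the results below was not tested.

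Pathway genes differed among the 5 groups, with 35 of the 46 (76.1%) passing an adjusted p under 0.05 in the edgeR quasi-likelihood test, where 64.7% of all genes tested passed. A gene past this threshold is called here. Against Healthy brain, 1 gene of the list was called in SHH tumors (0 higher, 1 lower), where 4.37% of all genes tested were called. Of all genes, 2.44% were called higher and 1.94% lower there. In Myc tumors 16 of the 46 were called higher and 7 lower, where 52.2% of all genes were called, 25.3% higher and 26.8% lower. In extracranial tumors 17 were called higher and 5 lower (47.8% of the list, against 52.2% of all genes, with 26.1% in each direction). In grafts 12 were called higher and 15 lower (58.7% of the list, against 55.3% of all genes, 24.9% higher and 30.4% lower). The shares called were thus near those of all genes, while the fold changes were larger in 3 of the 4 comparisons. The median size of the log2 fold change over the list was 0.52 in SHH tumors, 2.49 in Myc tumors, 1.93 in extracranial tumors and 2.47 in grafts, and over all genes tested 0.61, 1.30, 1.31 and 1.46. The list also spread more between libraries within each of these groups. Its median SD of log2(CPM + 1) was 0.50, 0.71, 1.14 and 0.23, against 0.28, 0.34, 0.34 and 0.14 over all genes tested. Whether the larger fold changes exceed that spread was not tested. Libraries of the tumor group and of brain did not overlap for 16 of the 46 genes in SHH tumors, 28 in Myc tumors, 22 in extracranial tumors and 39 in grafts, where 36.4%, 55.9%, 54.4% and 75.0% of all genes did not. These 4 comparisons share the 3 brain libraries.

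**Figure D1:**
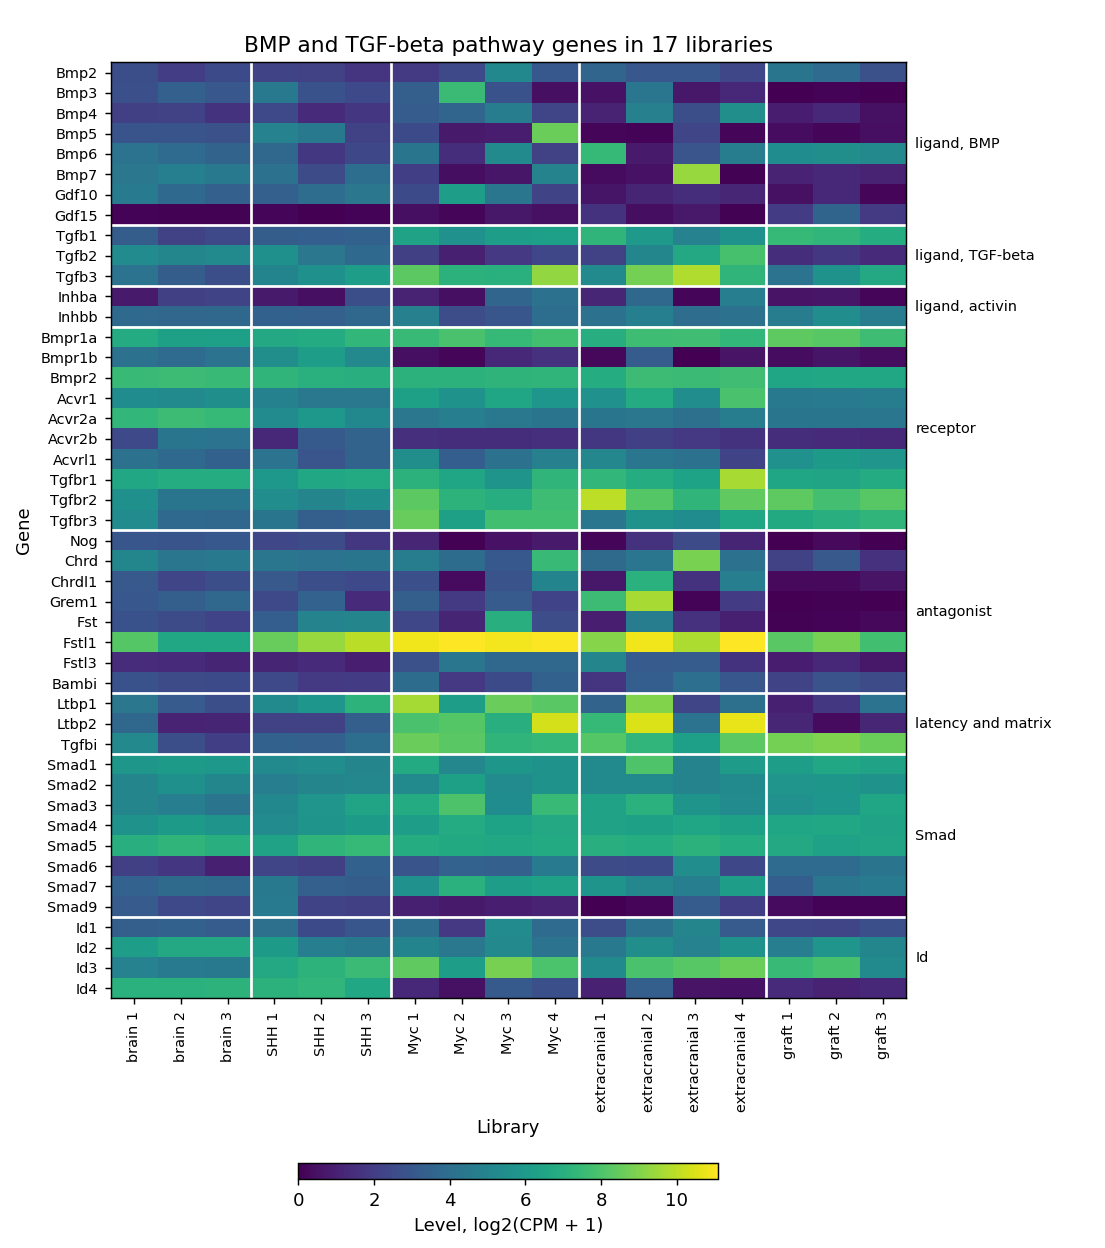
Level of each of the 46 pathway genes, as log2(CPM + 1), in each of the 17 libraries, with genes ordered by role and white lines between groups and roles. Acvr2a is bright in the 3 brains, Id4 in the 3 brains and the 3 SHH tumors, and Fstl1, Ltbp2 and Tgfb3 in Myc and extracranial tumors. Nog, Grem1, Fst, Chrdl1 and Bmp3 are dark in the 3 grafts.

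A set of 13 genes was called in the same direction against brain in Myc tumors, extracranial tumors and grafts (13 of 46, where 37.8% of all genes tested were). Of these, 9 were higher: the ligands Gdf15, Tgfb1 and Tgfb3, the receptors Bmpr1a and Tgfbr2, the matrix protein Tgfbi, Smad4, Smad6 and Id3. The other 4 were lower and comprised the activin type II receptors Acvr2a and Acvr2b and the BMP targets Id2 and Id4. Some of these calls rest on single libraries, named with each role below. Acvr2a was called lower in all 4 tumor groups (3.34% of all genes tested were called the same way in all 4). Every tumor library was below every brain library for Acvr2a, Nog and Id2 (10.7% of all genes tested lay so), and above every brain library for Tgfb3, Smad3 and Id3 (7.1% of all genes).

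The TGF-beta ligands changed in composition from Tgfb2 in brain to Tgfb3 and Tgfb1 in tumors. Tgfb1 (ENSMUSG00000002603.15, chr7:25687002-25705077 on GRCm38), the isoform most studied in immune regulation and fibrosis, was at 8.66, 3.62 and 4.40 CPM in the brains and at 8.65, 8.88 and 9.76 CPM in the SHH tumors. It was at 82.8, 47.9, 72.0 and 75.4 CPM in Myc tumors, 150.5, 64.0, 29.3 and 51.0 CPM in extracranial tumors and 172, 157 and 115 CPM in grafts. All 11 of these tumors lay above all brains and all SHH tumors. Against brain, the log2 fold change was 3.64 ± 0.51 (SE) in Myc tumors (adjusted p = 6.95e-05), 3.73 ± 0.51 in extracranial tumors (adjusted p = 5.67e-05) and 4.74 ± 0.55 in grafts (adjusted p = 1.47e-05). All 6 macrophage markers and all 6 T and NK cell markers, given above, were called higher in the same groups. In SHH tumors, where Tgfb1 was not called against brain, 4 of the 6 macrophage markers were called higher and 0 of the T and NK cell markers.

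Tgfb3 (ENSMUSG00000021253.6), a ligand prominent in mesenchyme and palate development, was at 17.5, 8.72 and 5.31 CPM in brain and at 31.5, 46.9 and 72.6 CPM in SHH tumors. It was at 319, 141, 130.4 and 631 CPM in Myc tumors, 37.8, 443, 863 and 152 CPM in extracranial tumors and 17.9, 49.1 and 102 CPM in grafts. The lowest graft lay just above the highest brain. Tgfb3 was 29.0-fold higher in mean CPM in Myc tumors than in brain (log2 fold change 4.86 ± 1.06, adjusted p = 0.00178) and 35.6-fold higher in extracranial tumors (5.15 ± 1.07, adjusted p = 0.00129). The call in grafts (2.42 ± 0.96, adjusted p = 0.0452) did not hold without any 1 of 9 libraries (Healthy brain 2 or 3, any SHH tumor, Myc 1, Extracranial 2, or graft 2 or 3), with an adjusted p of up to 0.179 without graft 3.

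Tgfb2 (ENSMUSG00000039239.14), an isoform with roles in neurons and glia, went the other way. It was at 39.7, 33.2 and 37.4 CPM in brain, 47.1, 20.2 and 12.8 CPM in SHH tumors, 3.28, 0.990, 2.57 and 4.11 CPM in Myc tumors and 1.77, 2.45 and 1.54 CPM in grafts. Myc tumors and grafts lay below every brain and every SHH tumor. The log2 fold change against brain was -3.74 ± 0.91 in Myc tumors (adjusted p = 0.00379) and -4.26 ± 1.05 in grafts (adjusted p = 0.00363). The 4 extracranial tumors were split, at 3.51, 32.8, 101 and 231 CPM, and were not called against brain. Per kb of exon, Tgfb2 made up 49.9% to 72.5% of the 3 TGF-beta transcripts in the brains, whereas Tgfb3 led in all 3 SHH and all 4 Myc tumors (48.6% to 92.2%), in 3 of 4 extracranial tumors and in 1 graft, and Tgfb1 led in the other extracranial tumor and the other 2 grafts.

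**Figure D2:**
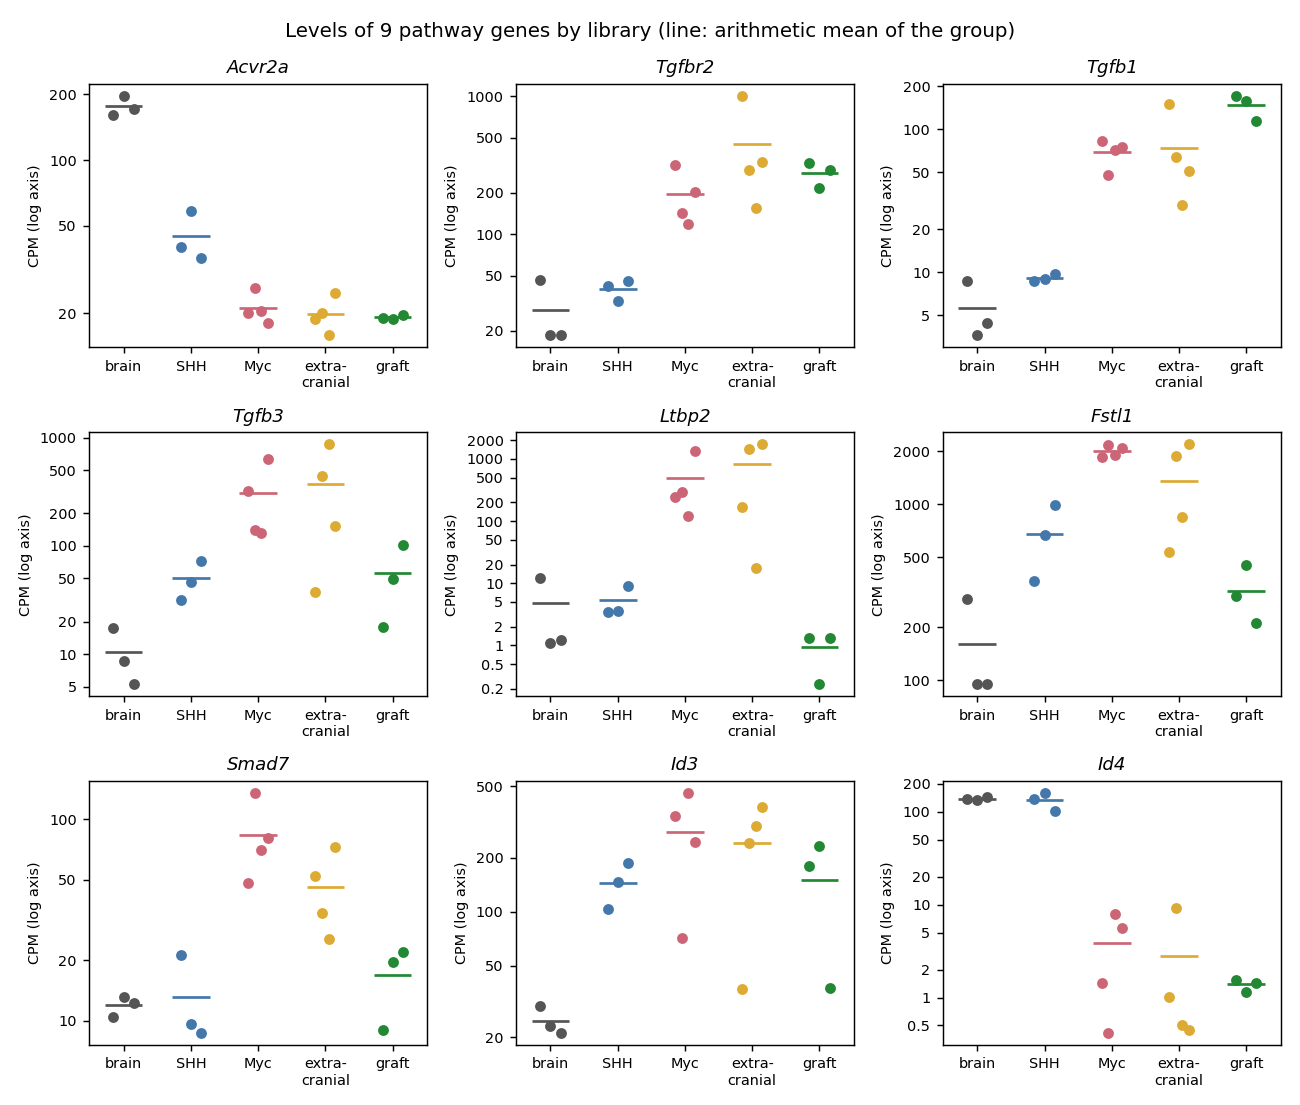
Level in CPM, on a log axis, of 9 pathway genes in each library (points), with the arithmetic mean of each group as a line. Acvr2a is at 161 to 197 CPM in the 3 brains and at or below 58.8 CPM in every tumor, Id4 is above 100 CPM only in brains and SHH tumors, and Ltbp2 is at or below 1.32 CPM in the 3 grafts.

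The leading BMP ligand differed from tumor to tumor. Bmp7, which together with Bmp6 belongs to the subgroup that includes Bmp5, led the 6 BMP2 to BMP7 transcripts per kb of exon in all 3 brains, with 33.4% to 42.6% of their sum. In SHH tumors Bmp5 led in libraries 1 and 2 and Bmp7 in library 3. In the 4 Myc tumors the leading ligand was Bmp6, Bmp3, Bmp4 and Bmp5, respectively, and in the 4 extracranial tumors it was Bmp6, Bmp4, Bmp7 and Bmp4. In the 3 grafts it was Bmp6 each time, with 63.6% to 81.5%. The sum of the 6 was 12.6–15.3 CPM per kb in the brain libraries, 7.91–20.5 in the SHH, 12.6–107.7 in the Myc, 17.2–172 in the extracranial and 11.5–16.6 in the graft libraries, so the groups overlapped.

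**Figure D3:**
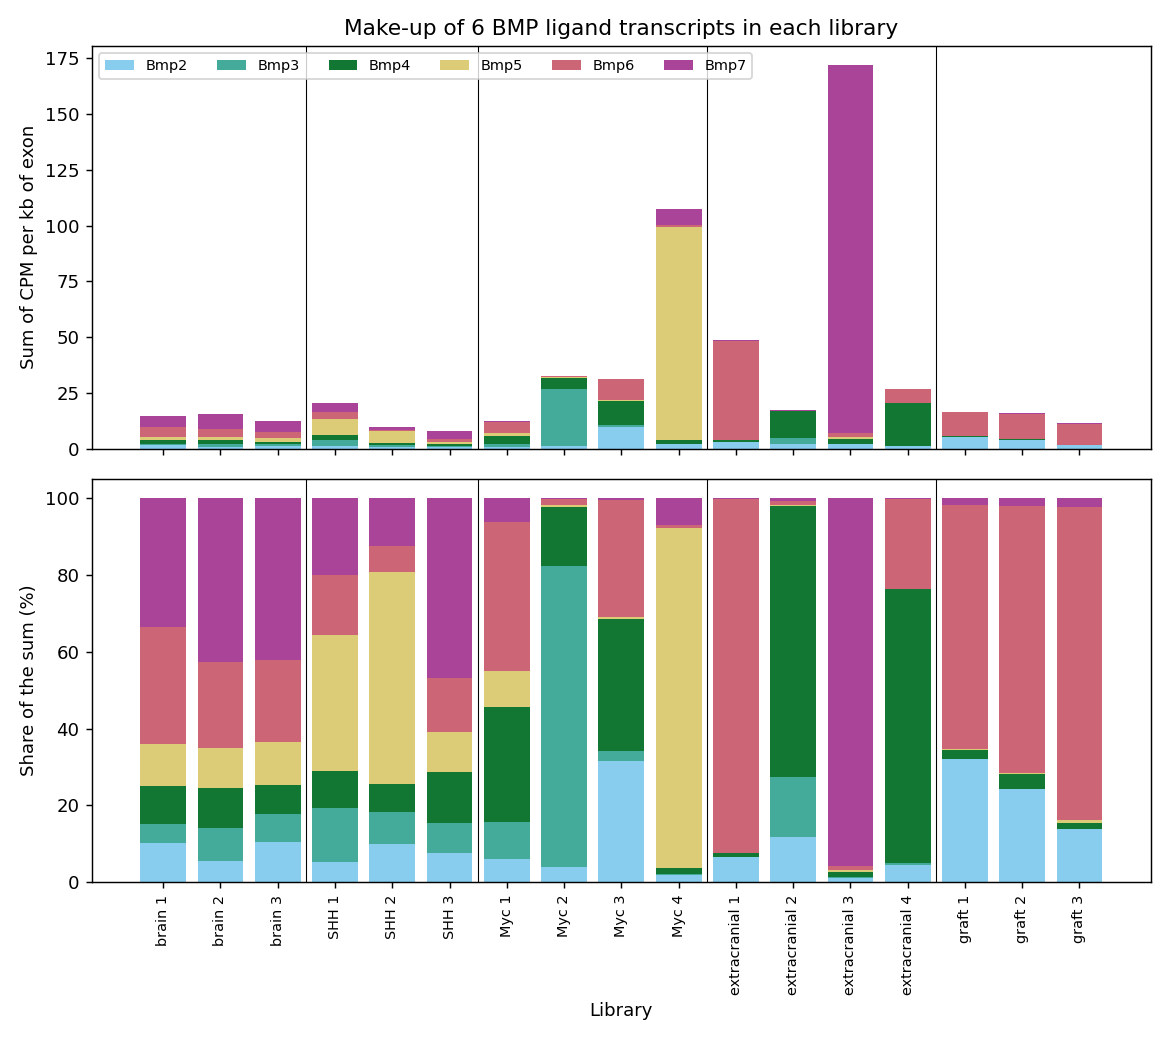
Level of 6 BMP ligand transcripts in each library, as stacked CPM per kb of exon (top) and as their share of the sum in percent (bottom). Bmp5 makes up 88.6% of the sum in Myc tumor 4 and Bmp7 95.9% in extracranial tumor 3, while Bmp6 leads in all 3 grafts.

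Bmp7 was at 0.244, 0.447, 662 and 0.0340 CPM in the 4 extracranial tumors, against 19.8, 26.3 and 21.2 CPM in brain. Bmp5 was at 4.70, 0.730, 0.820 and 384 CPM in the 4 Myc tumors, against 6.49, 6.40 and 5.69 CPM in brain. Bmp3, which restrains other BMPs, was at 9.13, 189, 5.94 and 0.388 CPM in the Myc tumors. In each case 1 tumor was far above brain and the others were below every brain, apart from Bmp3 in Myc tumors 1 and 3, which lay within the range of the brains. Bmp6 was at 174, 0.759, 6.62 and 24.8 CPM in the extracranial tumors and at 41.1, 43.4 and 36.7 CPM in the grafts, against 17.7, 13.5 and 10.5 CPM in brain. Bmp6 shares 224 exon bases with Txndc5 on the other strand, a gene that reached 375 CPM, and the strand setting of the counting is not stated in the labels, which makes its values uncertain. Bmp2, Bmp6 and Bmp7 were not called among the 5 groups (adjusted p = 0.0953, 0.234 and 0.0864). Bmp2, Bmp3, Bmp5, Bmp6 and Bmp7 were picked for these sentences after their values were seen.

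The spread within a group was measured as the SD of log2(CPM + 1) between libraries. Its median over the 8 BMP-type ligands was 1.80 in Myc tumors, 1.45 in extracranial tumors and 0.26 in grafts, against 0.42, 0.44 and 0.16 over all tested genes with a mean of at least 5 CPM. For the 10 receptors it was 0.51, 1.02 and 0.17, for the 8 antagonists 0.83, 1.59 and 0.22, for the 3 TGF-beta ligands 0.59, 1.95 and 0.30, and for the 3 latency and matrix genes 1.41, 2.94 and 0.52. The median of the BMP-type ligands was thus the highest of the roles in Myc tumors, but not in extracranial tumors or grafts. These values are a description, and the difference between ligands and other genes was not tested.

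Among the 8 BMP-type ligands, 1 was called higher and 0 lower than in brain in Myc tumors, where 25.3% and 26.8% of all genes tested were. In extracranial tumors 2 were called higher and 1 lower (26.1% of all genes in each direction). In grafts 1 was called higher and 2 lower (24.9% and 30.4% of all genes). Gdf15 (ENSMUSG00000038508.7), a stress-induced hormone of the superfamily that acts on a hindbrain receptor and not through Smads, was barely detected in brain, at 0.0635, 0.0388 and 0.0398 CPM. It was at 2.98, 10.8 and 2.69 CPM in grafts, above every other library. Grafts differed from brain by 6.79 ± 1.19 on the log2 scale (adjusted p = 0.000337). In Myc tumors it was at 0.383, 0.156, 0.654 and 0.418 CPM, a call (adjusted p = 0.0194) that was lost without Healthy brain 2 (adjusted p = 0.0663) or 3 (0.0682). In extracranial tumors it was at 2.05, 0.350, 0.716 and 0.0340 CPM, with 1 tumor at the level of brain (3.97 ± 1.04, adjusted p = 0.00574). That call was lost (adjusted p = 0.0769) without the 5 libraries that hold transcripts of other tissue (Healthy brain 1, SHH 1, Myc 1, and Extracranial 1 and 2). Marker sums for Healthy brain 1 and SHH 1 are given above. Pituitary markers summed to 193 CPM in Myc 1. Skeletal muscle markers summed to 126 and 76.8 CPM in Extracranial 1 and 2, against 14.7 and 9.04 CPM in Extracranial 3 and 4.

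Gdf10, also called BMP3b, was at 22.7, 12.7 and 9.71 CPM in brain and at 9.71, 14.5 and 20.2 CPM in SHH tumors. It was at 4.70, 71.8, 19.4 and 3.80 CPM in Myc tumors, 0.536, 1.23, 1.70 and 1.26 CPM in extracranial tumors and 0.422, 1.34 and 0.146 CPM in grafts. Extracranial tumors and grafts were thus all below every brain, with log2 fold changes of -3.66 ± 0.94 (adjusted p = 0.00519) and -4.56 ± 1.10 (adjusted p = 0.00325). Without the 5 libraries named above the extracranial call was lost (-2.93, adjusted p = 0.0909). Bmp4, a morphogen, was at 3.25, 3.58 and 2.10 CPM in brain and 4.48, 1.55 and 2.38 CPM in SHH tumors. In Myc tumors it was at 8.47, 11.3, 24.2 and 3.93 CPM, all above every brain, but was not called. It was at 1.12, 27.3, 5.34 and 43.2 CPM in extracranial tumors and 0.787, 1.36 and 0.397 CPM in grafts. Its call in extracranial tumors (2.69 ± 0.99, adjusted p = 0.0333) was lost without any 1 brain or without Extracranial 2 or 4, with an adjusted p between 0.0609 and 0.107. Bmp3 had 7 counts in all over the 3 grafts, at 0.0281, 0.0921 and 0.0104 CPM against 5.59, 9.62 and 6.96 CPM in brain, and was called lower (adjusted p = 0.0129), a call lost without graft 3 (adjusted p = 0.0521). The activin subunits Inhba and Inhbb were not called among the 5 groups (adjusted p = 0.14 and 0.0582). Inhbb was called higher in grafts than in brain (1.30 ± 0.50, adjusted p = 0.0394), but not without any 1 brain or graft 1 or 2, with an adjusted p of up to 0.159.

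Among the latency and matrix genes, Ltbp2 had the largest log2 fold change of the 46 genes in Myc and extracranial tumors. Ltbp2 (ENSMUSG00000002020.15, chr12:84783212-84876532), a fibrillin-binding member of the latent TGF-beta binding protein family that does not itself bind latent TGF-beta, was at 12.2, 1.11 and 1.22 CPM in brain and 3.40, 3.57 and 9.16 CPM in SHH tumors. It was at 240.0, 289, 122 and 1342 CPM in Myc tumors, 171, 1460.4, 17.6 and 1713 CPM in extracranial tumors and 1.29, 0.239 and 1.32 CPM in grafts. Myc and extracranial tumors were all above every brain and every graft. Relative to brain the log2 fold change was 6.68 ± 1.66 in Myc tumors (adjusted p = 0.0042) and 7.44 ± 1.72 in extracranial tumors (adjusted p = 0.00258). In grafts Ltbp2 was not called against brain (-2.35 ± 1.40, adjusted p = 0.165).

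Ltbp1, which tethers latent TGF-beta to the matrix, was at 19.96, 8.14 and 5.36 CPM in brain, 37.7, 55.9 and 143 CPM in SHH tumors and 767, 73.0, 374 and 304 CPM in Myc tumors. In extracranial tumors it was at 10.5, 513, 3.97 and 16.1 CPM and in grafts at 0.984, 2.49 and 18.0 CPM. Only the Myc tumors were called (5.09 ± 1.72, adjusted p = 0.0229), and not without Healthy brain 2 (adjusted p = 0.0769) or 3 (0.0817). Tgfbi, a matrix protein induced by TGF-beta, was at 36.8, 5.33 and 3.17 CPM in brain and 9.91, 9.56 and 14.9 CPM in SHH tumors. It was at 377, 309, 151 and 164 CPM in Myc tumors, 287, 158, 75.4 and 317 CPM in extracranial tumors and 439, 499 and 388 CPM in grafts, all above every brain and SHH tumor. Its log2 fold change against brain was 4.05 ± 0.80 (adjusted p = 0.000953), 3.79 ± 0.79 (adjusted p = 0.00133) and 4.87 ± 0.85 (adjusted p = 0.000337) in these 3 groups. Fibroblast markers were high in Myc and extracranial tumors, where 3 of 6 were called higher than in brain, and 1 of 6 was in grafts. Healthy brain 1, which held 3925 CPM of fibroblast markers, was the highest brain for Ltbp1, Ltbp2 and Tgfbi.

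Among the receptors, the activin type II receptors fell and the TGF-beta type II receptor rose. Acvr2a (ENSMUSG00000052155.5, chr2:48814109-48903269) was at 161, 197 and 172 CPM in brain and at 40.2, 58.8 and 35.8 CPM in SHH tumors. It was at 20.1, 26.2, 20.5 and 18.0 CPM in Myc tumors, 18.8, 20.04, 15.9 and 24.8 CPM in extracranial tumors and 18.9, 18.8 and 19.7 CPM in grafts. The 5 groups thus fell into 3 tiers without overlap: brain, then SHH tumors, then the other 11 tumors. The log2 fold change against brain was -1.97 ± 0.22 in SHH tumors (adjusted p = 0.00153), -3.06 ± 0.21 in Myc tumors (adjusted p = 6.83e-07), -3.15 ± 0.21 in extracranial tumors (adjusted p = 8.84e-07) and -3.21 ± 0.23 in grafts (adjusted p = 8.44e-07). It had the smallest adjusted p of the 46 genes in the 5-group test (1.96e-07), and each of its calls held without any 1 library. Acvr2a shares 446 of 5686 exon bases with Orc4 on the other strand, which reached 87.0 CPM. Of the 6 neuron markers, 1 was called lower than in brain in SHH tumors, 4 in Myc tumors, 5 in extracranial tumors and 5 in grafts. Not all of them followed the order of Acvr2a. Snap25 (1451 and 413 CPM) and Syt1 (785 and 430 CPM) were above every brain in SHH tumors 1 and 2. Both were below every brain in SHH tumor 3.

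Acvr2b, its close relative, was at 4.53, 18.7 and 17.5 CPM in brain, 1.44, 7.85 and 10.4 CPM in SHH tumors and 1.35 to 3.35 CPM in all 11 other tumors. It was called lower than in brain in Myc tumors (-2.91 ± 0.57, adjusted p = 0.000877), extracranial tumors (-2.37 ± 0.56, adjusted p = 0.00304) and grafts (-3.13 ± 0.64, adjusted p = 0.00105). Healthy brain 1 and SHH CNS tumor 1 were the lowest libraries of their groups.

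Tgfbr2 (ENSMUSG00000032440.13, chr9:116084293-116175360) was at 46.8, 18.6 and 18.8 CPM in brain and 42.5, 32.6 and 45.8 CPM in SHH tumors. It was at 315, 142, 119 and 201 CPM in Myc tumors, 1007, 290.3, 154 and 332 CPM in extracranial tumors and 327, 217 and 293 CPM in grafts, with no overlap with brain or SHH tumors. Tgfbr2 rose against brain in these 3 groups, with log2 fold changes of 2.79 ± 0.59 (adjusted p = 0.00155), 3.99 ± 0.63 (adjusted p = 0.000174) and 3.31 ± 0.63 (adjusted p = 0.000584). Per kb of exon, Acvr2a made up 62.7% to 65.9% of the 4 type II receptor transcripts in the brains. Tgfbr2 led in all 11 Myc, extracranial and graft libraries, with 54.3% to 92.2%, and in the SHH tumors Bmpr2 led in 2 libraries and Acvr2a in 1.

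Tgfbr3, the co-receptor betaglycan that presents TGF-beta to Tgfbr2, was at 39.6, 12.9 and 12.1 CPM in brain and 18.9, 9.33 and 10.7 CPM in SHH tumors. It was at 362, 78.1, 214 and 214 CPM in Myc tumors and 105, 124 and 151 CPM in grafts, all above brain (3.33 ± 0.64, adjusted p = 0.000739, and 2.56 ± 0.63, adjusted p = 0.00378). In extracranial tumors it was at 19.2, 49.0, 41.2 and 92.9 CPM and was not called. Bmpr1a, a BMP type I receptor, was at 113, 77.3 and 75.7 CPM in brain and 102, 114 and 160.0 CPM in SHH tumors. It was at 179, 240.1, 171 and 213 CPM in Myc tumors, 121, 200.2, 209 and 164 CPM in extracranial tumors and 329, 298 and 198 CPM in grafts. The rise against brain was 1.18 ± 0.26 (adjusted p = 0.00178), 0.97 ± 0.25 (adjusted p = 0.00591) and 1.63 ± 0.27 (adjusted p = 0.000233) on the log2 scale. Another BMP type I receptor, Bmpr1b, was at 16.99, 13.8 and 17.6 CPM in brain and at 44.1, 72.5 and 36.5 CPM in SHH tumors, all above brain. In contrast to Bmpr1a, it was low in Myc tumors, at 0.383, 0.104, 1.33 and 2.03 CPM. In extracranial tumors it was at 0.195, 8.46, 0 and 0.510 CPM, all below every brain, but was not called. It was at 0.281, 0.534 and 0.282 CPM in grafts (-5.46 ± 1.62 against brain, adjusted p = 0.0109). Its call in Myc tumors against brain (-4.02 ± 1.34, adjusted p = 0.0212) was lost without Myc tumor 1 (adjusted p = 0.0544).

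Acvr1, a BMP type I receptor also known as ALK2, was at 41.2, 38.2 and 45.7 CPM in brain, 28.3, 20.7 and 20.9 CPM in SHH tumors, 78.9, 51.4, 92.7 and 55.3 CPM in Myc tumors and 48.0, 112, 42.6 and 242 CPM in extracranial tumors. In grafts it was at 21.3, 22.5 and 25.3 CPM. Myc tumors were all above brain, and SHH tumors and grafts all below it, but of the comparisons with brain only that of extracranial tumors was called (1.41 ± 0.48, adjusted p = 0.023). It was lost without any 1 brain or Extracranial 4, with an adjusted p between 0.0547 and 0.113. Bmpr2 was between 93.8 and 208 CPM in all 17 libraries and was called only in grafts (-0.93 ± 0.19, adjusted p = 0.00102). Tgfbr1 was between 52.2 and 164 CPM in 16 libraries and at 796 CPM in Extracranial tumor 4, and was not called among the 5 groups (adjusted p = 0.064). Acvrl1, a type I receptor of endothelium, was called higher in grafts than in brain (2.09 ± 0.66, adjusted p = 0.0151, lost at 0.0575 without Healthy brain 3). Endothelial markers summed to 189 to 240.0 CPM in brain and 345 to 447 CPM in grafts, with 2 of 6 called higher and none at 0.

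Among the 8 antagonists, Fstl1 and Fstl3 rose in Myc and extracranial tumors, and Nog, Grem1, Fst and Chrdl1 fell in grafts. Fstl1 (ENSMUSG00000022816.11, chr16:37776873-37836514), a secreted glycoprotein of mesenchymal cells, was at 289.5, 95.6 and 95.5 CPM in brain, 368, 667 and 993 CPM in SHH tumors, 1868, 2170.4, 1904 and 2085 CPM in Myc tumors, 534, 1875, 847 and 2191 CPM in extracranial tumors and 302, 453 and 213 CPM in grafts. The rise against brain was 3.65 ± 0.59 in Myc tumors (adjusted p = 0.000214) and 3.09 ± 0.57 in extracranial tumors (adjusted p = 0.000566). In SHH tumors all 3 libraries were above all brains and the log2 difference was 2.08 ± 0.57, which missed the threshold (adjusted p = 0.0521). Fstl3, which binds activins, was at 1.68, 1.48 and 1.21 CPM in brain, 5.68, 19.8, 12.5 and 12.4 CPM in Myc tumors (3.11 ± 0.76, adjusted p = 0.00375) and 32.6, 8.07, 8.29 and 2.07 CPM in extracranial tumors (3.12 ± 0.76, adjusted p = 0.00354).

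Nog, which encodes noggin, was at 6.78, 6.41 and 7.28 CPM in brain and 4.07, 5.005 and 2.49 CPM in SHH tumors. It was at 1.31, 0.0521, 0.454 and 0.762 CPM in Myc tumors (-3.41 ± 1.07, adjusted p = 0.0163, and 0.0525 with the library number as a block) and 0.0975, 2.06, 4.89 and 1.22 CPM in extracranial tumors. In grafts it was at 0.0281, 0.221 and 0.0104 CPM (14 counts in all) and was called lower than in brain (adjusted p = 0.00177). Fst, which encodes follistatin, had 23 counts in all over the 3 grafts and Grem1, which encodes gremlin, had 4. In the grafts, 4 of 8 antagonists were called lower than in brain, namely Nog, Grem1, Fst and Chrdl1, where 30.4% of all genes tested were. The Fst call was lost without graft 1 (adjusted p = 0.0652) or 2 (0.0661), and the Chrdl1 call (adjusted p = 0.0437) without any 1 brain, SHH tumor or graft, Myc 1 or 3, or Extracranial 4, with an adjusted p of up to 0.119. In Grem1 each graft held 1 or 2 counts, so its level there is known only to within counting error.

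Outside the grafts Grem1, Fst, Chrdl1 and Chrd were each high in 1 or a few tumors, whereas Nog was below every brain in every tumor. Grem1 was at 197, 811, 0.0895 and 2.82 CPM in extracranial tumors, against 7.10, 9.20 and 12.6 CPM in brain. The extracranial tumors were called higher (4.71 ± 1.78, adjusted p = 0.0384), but not without any 1 brain or Extracranial 2 (adjusted p between 0.0918 and 0.149), and the fold turned to -2.89 (adjusted p = 0.114) without the 5 libraries with transcripts of other tissue, which include both high tumors. Fst was at 4.21, 1.20, 128 and 5.12 CPM in Myc tumors and 8.96, 30.1 and 32.2 CPM in SHH tumors, against 5.91, 5.01 and 3.74 CPM in brain. Chrdl1, a chordin relative, was at 0.634, 135, 2.09 and 25.96 CPM in extracranial tumors against 7.64, 3.97 and 5.43 CPM in brain. Chrd, which encodes chordin, was at 24.4, 14.0, 7.44 and 179 CPM in Myc tumors and 13.2, 19.3, 461 and 16.6 CPM in extracranial tumors, and was named here after its values were seen. The tumors highest in Chrd were those highest in Bmp5 (Myc 4) and Bmp7 (Extracranial 3). Chrd shares 239 exon bases with Thpo on the other strand, which reached 14.3 CPM.

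Among the 8 Smads, 4 were called higher than in brain in Myc and in extracranial tumors, namely Smad7, Smad3, Smad4 and Smad6. Of all genes tested, 25.3% and 26.1% were called higher in these 2 groups. Smad7 (ENSMUSG00000025880.11) was at 10.4, 13.1 and 12.2 CPM in brain, 21.2, 9.66 and 8.70 CPM in SHH tumors, 48.2, 135, 70.6 and 80.5 CPM in Myc tumors and 52.6, 34.2, 25.6 and 73.1 CPM in extracranial tumors. It was at 8.97, 19.6 and 22.01 CPM in grafts, which overlapped with brain. Smad7 rose against brain by 2.81 ± 0.49 in Myc tumors (adjusted p = 0.000375) and 1.96 ± 0.47 on the log2 scale in extracranial tumors (adjusted p = 0.00332). Smad3 was at 32.6, 26.1 and 18.2 CPM in brain, 35.7, 54.5 and 89.6 CPM in SHH tumors, 114, 258, 41.4 and 177 CPM in Myc tumors, 82.4, 136, 52.8 and 39.3 CPM in extracranial tumors and 47.5, 56.6 and 91.4 CPM in grafts. It was called in Myc tumors (2.52 ± 0.59, adjusted p = 0.00284). The extracranial call (1.60 ± 0.56, adjusted p = 0.0283) was lost without Healthy brain 2 (adjusted p = 0.0733), Healthy brain 3 (0.105) or Extracranial 2 (0.0908), and without the 5 libraries (0.242).

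Smad4, shared by both branches, was at 50.6, 66.1 and 52.2 CPM in brain and at 73.1 to 114 CPM in all 11 Myc, extracranial and graft libraries. The rise was small, at 0.73 ± 0.20 in Myc tumors (adjusted p = 0.00664), 0.58 ± 0.19 in extracranial tumors (adjusted p = 0.0225) and 0.69 ± 0.21 in grafts (adjusted p = 0.0113). The extracranial call was lost without Healthy brain 1 (adjusted p = 0.0825) or 3 (0.0837), and without the 5 libraries with transcripts of other tissue. Smad6, the inhibitory Smad of the BMP branch, was at 3.29, 2.40 and 0.970 CPM in brain and at 4.35 to 42.8 CPM in these 11 libraries. Its 3 calls (adjusted p = 0.0272, 0.0189 and 0.0175) each rested on single libraries. They were lost without Healthy brain 3 in all 3 groups (adjusted p = 0.102, 0.0775 and 0.0685), without Healthy brain 2 in Myc and extracranial tumors (0.0703 and 0.0544), without Myc 4 (0.0719) and without Extracranial 3 (0.122). The 3 receptor-regulated Smads Smad1, Smad2 and Smad5 were between 26.1 and 261 CPM in every library, and none of their folds against brain was called in either CNS group or in extracranial tumors. In grafts only Smad5 was called (-0.55 ± 0.22, adjusted p = 0.0454), a call lost without any 1 brain, SHH tumor 2, or graft 2 or 3, with an adjusted p of up to 0.146. Smad9, by contrast, was at 8.09, 4.49 and 3.96 CPM in brain and 22 counts in all in grafts (0.253, 0.0921 and 0.0835 CPM, adjusted p = 0.0115).

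The Id genes moved apart. Id4 (ENSMUSG00000021379.1), which is expressed in neural progenitors and astrocytes, was at 137, 135 and 143 CPM in brain and 137, 158 and 101 CPM in SHH tumors. It was at 1.42, 0.417, 7.91 and 5.56 CPM in Myc tumors, 1.02, 9.26, 0.507 and 0.442 CPM in extracranial tumors and 1.55, 1.16 and 1.44 CPM in grafts. The 11 latter tumors lay more than 10-fold below the lowest of the 6 brain and SHH libraries. The log2 fold change against brain was -5.15 ± 1.06 (adjusted p = 0.00119), -5.60 ± 1.08 (adjusted p = 0.00074) and -6.64 ± 1.28 (adjusted p = 0.000689). Astrocyte markers summed to 700.3 to 845 CPM in brain and 693 to 3479 CPM in SHH tumors, and to 20.4 to 902 CPM in the other 11 tumors, with none at 0.

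Id3 (ENSMUSG00000007872.3) rose where Id4 fell. It was at 29.7, 23.1 and 21.2 CPM in brain, 103, 145 and 186 CPM in SHH tumors, 339, 71.4, 456 and 244 CPM in Myc tumors, 37.2, 239.8, 299 and 383 CPM in extracranial tumors and 179.8, 231 and 37.4 CPM in grafts. All 14 tumors were above all brains. Its log2 fold change was 3.49 ± 0.81 in Myc tumors (adjusted p = 0.00266), 3.28 ± 0.80 in extracranial tumors (adjusted p = 0.00362) and 2.60 ± 0.80 in grafts (adjusted p = 0.013, and 0.0545 without graft 2). In SHH tumors it was 2.55 ± 0.79 and missed the threshold (adjusted p = 0.0809). Per kb of exon Id3 was the leading Id transcript in all 14 tumors (43.0% to 88.4%), whereas Id2 or Id4 led in the brains.

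Id2 was at 73.4, 104 and 102 CPM in brain and at 17.5 to 64.2 CPM in the 14 tumors, with no overlap. It was called lower in Myc tumors (-1.81 ± 0.42, adjusted p = 0.00261), extracranial tumors (-1.35 ± 0.41, adjusted p = 0.0138) and grafts (-1.29 ± 0.45, adjusted p = 0.0253). The graft call was lost without Healthy brain 2 (adjusted p = 0.0647) or 3 (0.0627) or graft 1 (0.0944) or 3 (0.0776). Id1 was at 9.19, 9.74 and 8.49 CPM in brain, 2.61 to 40.5 CPM in Myc tumors and 4.19, 3.98 and 5.47 CPM in grafts, and was not called among the 5 groups (adjusted p = 0.182).

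**Figure D4:**
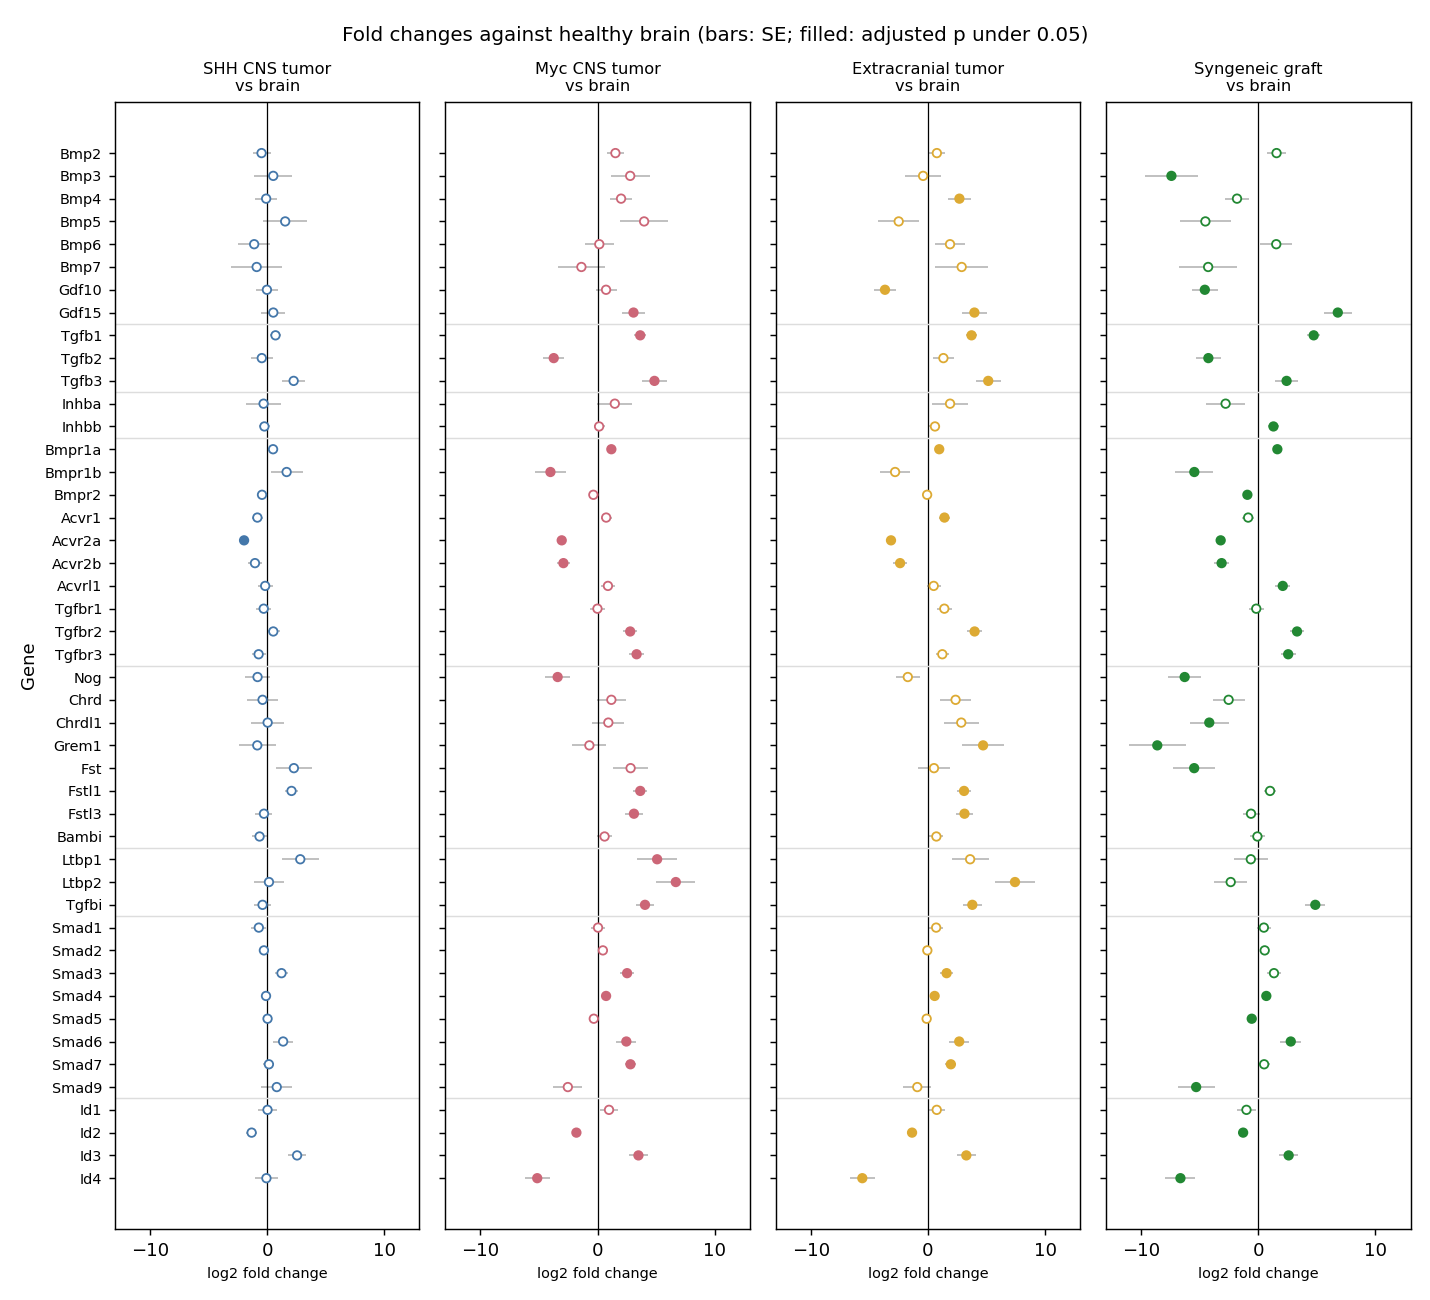
Log2 fold change of each pathway gene against Healthy brain in each of the 4 tumor groups (points) with its SE (bars), in the order of roles. Filled points are called at an adjusted p under 0.05: 1 gene in SHH tumors, 23 in Myc tumors, 22 in extracranial tumors and 27 in grafts.

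The CNS subtypes differed from each other in 20 of the 46 genes, 14 higher and 6 lower in Myc than in SHH tumors (43.5% of the list, against 40.9% of all genes tested, 19.0% higher and 21.9% lower). The libraries did not overlap for 20 genes of the list and 42.9% of all genes. Tgfbr3 was 16.7-fold higher in mean CPM in Myc tumors (4.07 ± 0.66, adjusted p = 0.000447), Tgfb1 7.65-fold (2.93 ± 0.49, adjusted p = 0.000505), Smad7 6.34-fold (2.67 ± 0.49, adjusted p = 0.000921) and Tgfbi 21.8-fold (4.45 ± 0.82, adjusted p = 0.00099). Acvr2a was 2.12-fold lower (-1.09 ± 0.20, adjusted p = 0.000976), Id4 34.5-fold lower (-5.08 ± 1.05, adjusted p = 0.00204) and Bmpr1b 53.1-fold lower (-5.68 ± 1.43, adjusted p = 0.00653). Acvr1 was 2.98-fold higher (1.58 ± 0.48, adjusted p = 0.0181), a call lost without SHH tumor 2 (adjusted p = 0.0644) or 3 (0.0584). Libraries of the 2 subtypes did not overlap for any of these 8 genes. Of the 20 calls, 12 held without each library left out in turn. Leaving out SHH tumor 2 reduced the count of called genes of the list to 12. Fibroblast markers summed to 370.4 to 482 CPM in SHH and 3991 to 15849 CPM in Myc tumors.

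Between extracranial and Myc tumors no pathway gene passed the threshold. None of the 46 was called with edgeR, where 0.0186% of all genes tested (4 genes) were called. An unadjusted p under 0.05 was reached by 8 genes of the list. DESeq2 called 5 (Bmp5, Gdf10, Grem1, Tgfb2 and Tgfbr3) and limma voom 0. The libraries did not overlap for 3 genes of the list and 4.44% of all genes. The median size of the log2 fold change was 0.68 over the list and 0.44 over all genes. For Tgfb2 the 4 Myc tumors were at 0.990 to 4.11 CPM and the extracranial tumors at 3.51 to 231 CPM, and for Tgfbr3 at 78.1 to 362 and 19.2 to 92.9 CPM.

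Grafts held less of several ligands and antagonists and of 1 of the 3 latency and matrix genes, Ltbp2, than extracranial and Myc tumors did. Against extracranial tumors 0 genes of the list were called higher and 9 lower (19.6% of the list, where 4.78% of all genes tested were called, 2.16% higher and 2.62% lower). These were Ltbp2, Tgfb2, Grem1, Bmpr2, Fstl3, Acvr1, Bmp4, Fstl1 and Chrdl1. Against Myc tumors 1 was called higher, Gdf15, and 8 lower, Ltbp2, Smad7, Fstl3, Fstl1, Gdf10, Fst, Bmp3 and Bmp4 (19.6%, where 6.0% of all genes tested were called, 3.12% higher and 2.88% lower). Mean Ltbp2 was 0.949 ± 0.615 CPM (SD, n = 3) in grafts, 841 ± 870.1 CPM (n = 4) in extracranial tumors and 498 ± 567 CPM (n = 4) in Myc tumors. The adjusted p was 0.0209 and 0.0188. Mean Fstl1 was 322 ± 121 CPM in grafts, 6.23-fold lower than the 2007 ± 144 CPM of Myc tumors (-2.64 ± 0.56, adjusted p = 0.0216). Fstl3 was 13.2-fold lower (-3.72 ± 0.78, adjusted p = 0.0208) and Smad7 4.96-fold lower (-2.31 ± 0.48, adjusted p = 0.0196) than in Myc tumors. None of the 18 calls held when any 1 of the 3 grafts was left out: both counts then fell to 0, and the adjusted p of Ltbp2 against Myc tumors, for example, was 0.0788 to 0.0816. Of the 18 calls, 6 were also lost without single libraries of other groups. Against extracranial tumors these were Bmp4 (Healthy brain 2 or 3, or Extracranial 2 or 4), Fstl1 (Healthy brain 2 or 3, SHH 2, Myc 1, 3 or 4, or Extracranial 2 or 4) and Chrdl1 (any brain or SHH tumor, Myc 1 or 3, or Extracranial 2 or 4), with an adjusted p of up to 0.144, 0.16 and 0.161 over all libraries left out. Against Myc tumors they were Fst (Myc 3), Gdf15 (any Myc tumor) and Bmp4 (any brain, SHH or Myc tumor), with an adjusted p of up to 0.129, 0.137 and 0.164. In a fit of the compared groups alone the count against extracranial tumors was also 0. The libraries of the compared groups did not overlap for 17 of the 18 calls, all but Bmp4 against extracranial tumors. Over the whole list they did not overlap for 19 genes in each comparison, where 22.2% and 25.2% of all genes did not.

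The remaining genes of the pathway were called at shares near those of all genes. Of 68 other ligands, receptors, antagonists, activators, intracellular regulators and targets, 63 passed the filter. Against brain, 1 was called higher and 1 lower in SHH tumors, 16 and 16 in Myc tumors, 15 and 16 in extracranial tumors and 12 and 26 in grafts (3.17%, 50.8%, 49.2% and 60.3%, beside the backgrounds of 4.37%, 52.2%, 52.2% and 55.3%). Acvr1b, the type I receptor that pairs with Acvr2a for activin, fell as Acvr2a did, from a mean of 134 CPM in brain to 19.3 CPM in Myc tumors (-2.80 ± 0.24, adjusted p = 2.44e-06), 20.8 CPM in extracranial tumors (-2.69 ± 0.24, adjusted p = 2.71e-06) and 27.5 CPM in grafts (-2.29 ± 0.26, adjusted p = 1.25e-05). Itgav, the integrin subunit that helps release TGF-beta from its latent complex, rose from 37.9 CPM to 547 CPM in Myc tumors (3.85 ± 0.56, adjusted p = 0.000104) and 572 CPM in extracranial tumors (3.92 ± 0.57, adjusted p = 8.79e-05). Nrros, which anchors latent TGF-beta on microglia and other myeloid cells, rose from 4.03 CPM to 179 CPM in grafts (5.47 ± 0.70, adjusted p = 3.31e-05). Tgif1, a repressor of Smad-dependent transcription, rose from 4.81 CPM to 135 CPM in Myc tumors (4.81 ± 0.58, adjusted p = 2.51e-05). Among 13 other antagonists tested, 9 were called lower in grafts than in brain and 1 higher, where 30.4% and 24.9% of all genes tested were. Fstl5, a follistatin-like gene, fell from 81.0 CPM in brain to 0.454 CPM in Myc tumors (-7.54 ± 1.35, adjusted p = 0.000458), unlike Fstl1 and Fstl3. The calls given here for Acvr1b, Itgav, Nrros, Tgif1 and Fstl5 held without each library left out in turn, apart from that of Tgif1 in SHH tumors. That call was lost without Healthy brain 2 or 3 or SHH tumor 3, with an adjusted p of up to 0.0742.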

How the data were processed

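The authors deposited 1 file of raw counts per gene for each of 17 libraries, made from TruSeq stranded mRNA libraries of polyadenylated RNA, per the labels' protocols. The submitters' processing notes name STAR 2.5.3a and the build mm10, and the counting tool and its strand setting are not given in the sources used here. Gene IDs were matched to GENCODE M21 for symbols, positions and exon lengths. Counts were scaled by TMM, and 21494 genes that passed edgeR's filter (minimum count 10) were fitted in 1 model of all 17 libraries with 5 group means. The test was edgeR 4.0.16's quasi-likelihood F test in R 4.3.3, with Benjamini-Hochberg adjustment over all genes tested and a threshold of 0.05. SE is the log2 fold change divided by the root of F, and the script was tested on simulated data. Group comparisons were 4 tumor groups against brain, Myc against SHH, extracranial against Myc, and grafts against both. Depth was 18685672 to 130835711 counts per library, and no library repeated another (chi-square per gene 71.8 to 976 over 21 pairs of the same group). Alternatives were RLE factors, no filter, DESeq2 1.42.0, limma 3.58.1 voom with quality weights, the compared groups alone, the library number as a block, each library left out, and leaving out 5 libraries that earlier results of these data showed to hold transcripts of other tissue. Values in every library are given for up to 6 genes of each role, those with the smallest adjusted p over the 5 groups, and other genes named were chosen after their values were seen. The members and lists were chosen with earlier results of these data known.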

Additional observations from a re-analysis of the deposited data

Results flagged for a closer look

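In 19 of 92 gene and group pairs of 4 libraries, 1 tumor lay far above the other 3 of its group by Dixon's outlier rule on CPM. The rule flags about 1 in 20 only for normal and independent values. CPM need not be normal and genes of 1 tumor are not independent, so that rate does not apply here. The share over all genes was not computed, and the 19 are a description. In Myc tumor 4 these were Bmp5 at 384 CPM, Bmp7 at 30.3 CPM, Chrd at 179 CPM and Ltbp2 at 1342 CPM. In Myc tumor 3 they were Bmp2 at 35.2 CPM and Fst at 128 CPM, and in Myc tumor 2 Bmp3 at 189 CPM. In extracranial tumor 3 they were Bmp7 at 662 CPM, Chrd at 461 CPM, Smad6 at 42.8 CPM and Bmp5 at 4.06 CPM. Extracranial tumor 2 stood apart for Ltbp1 at 513 CPM, Smad1 at 261 CPM, Fst at 24.0 CPM, Bmp3 at 19.7 CPM, Id4 at 9.26 CPM and Bmpr1b at 8.46 CPM. In extracranial tumor 1 it was Bmp6 at 174 CPM and in extracranial tumor 4 Tgfbr1 at 796 CPM. All 19 were the highest library of their group.

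For 3 genes, all libraries of 1 tumor group lay above all brains and all libraries of another lay below them, and the direct comparison was called. The log2 fold change of Bmpr1b between Myc and SHH tumors was -5.68, that of Acvr1 was 1.58, and that of Bmp4 between grafts and Myc tumors was -3.82. The call for Acvr1 was lost without SHH tumor 2 or 3 and without the 5 libraries with transcripts of other tissue. That for Bmp4 was lost without any 1 of 13 libraries (each brain, SHH tumor, Myc tumor and graft), with an adjusted p of up to 0.164, as well as with every gene that has a count and with the library number as a block.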

How the results depend on the processing

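Of 111 called fold changes, 65 kept their call without each library left out in turn and 62 under each setting tried. Against brain, SHH tumors had 1 called gene, which became 4 with DESeq2, 14 with limma voom, 3 with the compared groups alone and 2 without the 5 libraries with transcripts of other tissue. Between extracranial and Myc tumors the count of 0 became 5 with DESeq2 and 1 without those 5 libraries. Between grafts and extracranial tumors the 9 became 18 with DESeq2, 18 with limma voom, 0 with the compared groups alone and 4 with the library number as a replicate block. Between grafts and Myc tumors the 9 became 18 with DESeq2, 22 with limma voom and 14 without the 5 libraries. The log2 fold change of Grem1 in extracranial tumors against brain turned to -2.89 without the 5 libraries, which include the 2 tumors highest in Grem1. Without 1 library each, the counts ran from 1 to 3 for SHH tumors against brain, 12 to 22 for Myc against SHH tumors, 0 to 1 for extracranial against Myc tumors, 0 to 16 for grafts against extracranial and 0 to 14 for grafts against Myc tumors, where any 1 graft left out gave 0. The cause of these changes was not tested. Over 31 pairs of same-numbered libraries the correlation of their deviations was -0.167 to 0.166 (median 0.0145) and was over 0.1 in 2. Over 84 pairs with different numbers it was -0.144 to 0.154 (median -0.00494) and over 0.1 in 4. With 3 or 4 libraries a group, this check showed no clear pairing but cannot exclude it. With the block, 28 genes instead of 35 differed among the 5 groups. Genes with few counts in grafts (4 for Grem1, 7 for Bmp3) are limited by depth.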
